A study of Mus musculus with 8 samples.

Results

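Cntnap2, Csmd1, Dlg2, Macrod2, Lrp1b, Ctnna2, Ptprd, Nrxn3, Magi2 and Lsamp are 10 of the longest protein-coding genes of the mouse autosomes, with bodies of 1.10 to 2.27 Mb, and most of their products work at the neuronal surface or at synapses. They were chosen by name, and every 100-kb bin that their bodies overlap in the GENCODE vM21 annotation of mm10 was taken, which gave 198 bins of the 23972 scored in every library. No bin was shared between genes, and the genes are 10 of the 20721 protein-coding autosomal genes that hold a scored bin. In mouse embryonic stem cells (mESCs) every gene lay in the B compartment as a whole in all 8 libraries. The test for a change after UNC0642, after loss of SETDB1 or after loss of SUV39H1/2 was passed by 0 of the 10 genes and by 0 of all 20721 genes (0%).

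The study asked how H3K9 methyltransferases bear on the A and B compartments of mESCs, and measured this by in situ Hi-C with the enzyme DpnII. SETDB1 and the pair SUV39H1/2 trimethylate H3K9, and G9a/GLP, whose activity UNC0642 inhibits, dimethylate it. The files used here hold 1 score track for each of the 8 groups, called its library below, so that no spread between replicates could be taken from them, although the methods of the study describe replicate Hi-C experiments. The Setdb1 groups came from 1 conditional knockout line. Setdb1 WT is that line untreated, Setdb1 WT + UNC is the line after 2 µM UNC0642 for 3 days, Setdb1 KO is the line after 800 nM 4-OHT (4-hydroxytamoxifen) for 5 days to delete the gene, and Setdb1 KO + UNC received 4-OHT for 2 days before UNC0642. The Suv39h groups came from separate wild-type and Suv39h1/2 double knockout clones and saw no 4-OHT. They are Suv39h WT and Suv39h DKO, each untreated or with UNC0642 at the same dose and time. The Setdb1 line and the Suv39h clones differ in origin, and the WT and DKO clones may differ by more than the deleted genes. Expression was not measured in these files, so the markers of mESCs were not checked here.

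In Hi-C, chromatin sorts into an A compartment, which is gene-rich, early replicating and mostly active, and a B compartment, which is gene-poor, often at the nuclear lamina and mostly silent. Very long genes of the nervous system tend to lie in AT-rich, gene-poor domains and to be little transcribed before neurons form. The compartment score used here is the first eigenvector of the contact map of each chromosome, with positive values for A and negative values for B. It is centred on 0 for every chromosome, and its size depends on the chromosome, so genes are compared with each other as multiples of the standard deviation over all bins of the chromosome (chromosome SD units). The sequencing depth behind each score is not given by these files.

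Of the 198 bins, 191 (96.5%) were below 0 in all 8 libraries, against 48.0% of all bins. Only 5 bins were above 0 in all 8 libraries, against 38.9% of all bins, and 2 bins differed in sign between libraries. The share of the 198 bins in A was between 2.53% and 3.54% of each library, while that of all bins was between 44.5% and 46.3%. These shares depend on the centring of each chromosome on 0. With the chromosome mean that the centring removed added back, as estimated from the scores, the share of the 198 bins in A was between 4.55% and 10.1% (all bins, 51.0% to 54.6%), and with it subtracted it was between 1.01% and 2.53% (38.5% to 40.3%). All 80 means over a gene body, 1 for each gene and library, were below 0, and 78 were with the mean added back. A mean below 0 in all 8 libraries was found for 21.2% of all protein-coding genes, for 58.2% of the 433 genes of at least 5 bins and for 37 of the 45 other genes of at least 1 Mb (82.2%). Long genes thus lay in B more often than short ones, and the 10 genes shared this with most genes of their length.

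The 10 genes differed in how far they lay below 0. Magi2 was the highest with a mean over the 8 libraries of −0.335 chromosome SD units, followed by Csmd1 at −0.532 and Lrp1b at −0.770. Nrxn3 (−0.893), Macrod2 (−0.904), Cntnap2 (−0.944) and Lsamp (−0.945) were close together, and below them came Dlg2 (−1.04), Ctnna2 (−1.10) and Ptprd (−1.26). The libraries of Magi2 and of Csmd1 did not overlap, nor did those of Csmd1 and Lrp1b or those of Ctnna2 and Ptprd, and in each of these pairs the order was the same in 8 of 8 libraries. All other neighbours in this order overlapped, and Cntnap2 was above Lsamp in only 2 of 8 libraries. The spread over the 8 libraries of a gene, whatever their genotype and treatment, was smaller than the distance between the highest and the lowest genes.

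**Figure D1:**
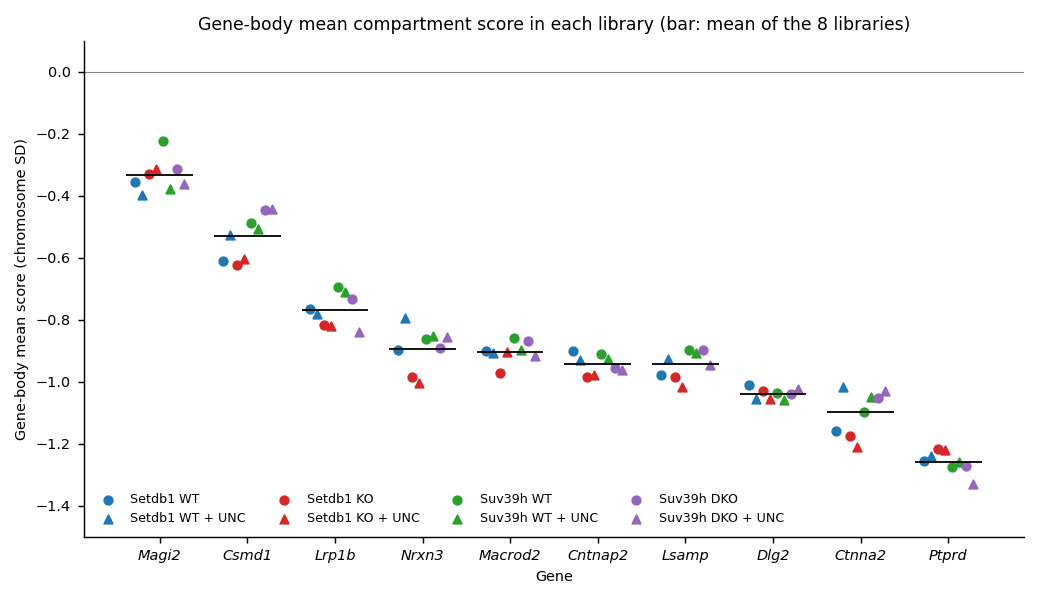
Mean compartment score over the gene body of the 10 genes (chromosome SD units, vertical axis) in each of the 8 libraries. Circles are untreated and triangles UNC0642-treated libraries, colours give the genotype, and the bar is the mean of the 8 libraries; all 80 points lie below 0, from −0.223 for Magi2 in Suv39h WT to −1.33 for Ptprd in Suv39h DKO + UNC.

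Cntnap2 encodes contactin-associated protein-like 2 (Caspr2), a neurexin-related adhesion molecule that clusters potassium channels along axons. It covers 24 bins at chr6:45059357-47304213 on the plus strand. Its mean score was between −0.0253 and −0.0231 in the 8 libraries. The gene did not have 1 state along its length: the start bin was at −0.0312 (−0.0414 to −0.0243), the lowest bin, the 8th, at −0.0330, and the last bin at 0.0147 (0.00981 to 0.0176). The scores climbed over the last bins, from −0.0148 in the 21st and −0.00925 in the 22nd to 0.0119 in the 23rd, and the sign changed once, between the 22nd and the 23rd bin, in every library. Downstream of the gene the 5 flanking bins averaged 0.0263, and upstream they averaged −0.0310. The last bin, from position 47300001, holds only the 3′ end of the gene, while the 23rd lies wholly inside it. The boundary between B and A therefore fell inside the gene, close to its 3′ end.

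RefSeq places a pair of Cntnap2 starts on either side of this boundary. The upstream start at position 45060061 lies in the first bin, which was B in all 8 libraries, and the downstream start at position 47244396 lies in the 23rd bin, which was A in all 8 libraries at 0.00651 to 0.0165. The 300 bases around the upstream start, 250 before and 50 after it, held 14 CpG dinucleotides and those around the downstream start held 3, where the median over 32851 RefSeq promoters of the same length was 7. At least 14 CpG were found in 36.3% of all promoters, and at least 3 in 76.7%. The 200 bases before each start, or before the first exon base of the gene near it, are shown from the RefSeq sequence of GRCm38.p6 because these starts of the same gene lay in opposite compartments, with CpG in capitals. They are chr6:45059861-45060060 and chr6:47244187-47244386, both on the plus strand.
Cntnap2 upstream start: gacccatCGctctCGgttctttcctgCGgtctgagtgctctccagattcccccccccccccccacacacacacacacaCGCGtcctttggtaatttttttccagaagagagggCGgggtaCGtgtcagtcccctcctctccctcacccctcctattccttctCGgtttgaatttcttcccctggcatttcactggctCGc
Cntnap2 downstream start: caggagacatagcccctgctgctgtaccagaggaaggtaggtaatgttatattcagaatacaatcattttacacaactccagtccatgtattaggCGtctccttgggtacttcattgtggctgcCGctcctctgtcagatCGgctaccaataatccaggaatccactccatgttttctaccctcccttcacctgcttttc

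Nrxn3 encodes neurexin 3, a presynaptic adhesion molecule whose alternative starts give a long and a short protein. It covers 17 bins at chr12:88722876-90334935 on the plus strand, and all of them were B in all 8 libraries. The start bin was the highest of the gene at −0.0199 (−0.0240 to −0.0141) and the 16th bin the lowest at −0.0313. The flank upstream of the gene averaged −0.0120 and was above the gene body in 8 of 8 libraries. Along the body the score decreased towards the 3′ end: the correlation of the bin means with their order was −0.729 over the 17 bins, which share libraries and neighbours. RefSeq gives 3 starts, in the 1st, 3rd and 12th bin, at scores of −0.0199, −0.0215 and −0.0218, so its alternative starts all lay in B.

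Lsamp encodes the limbic system-associated membrane protein, a glycolipid-anchored cell adhesion molecule of the IgLON family. It covers 23 bins at chr16:39984361-42181679 on the plus strand, all B in all 8 libraries, with the start bin at −0.0306 (−0.0332 to −0.0280). A single bin inside the gene, the 8th, stood above its neighbours at −0.0184 (−0.0285 to −0.00878), where the 7th was at −0.0266 and the 9th at −0.0286. It was above both in 7 of 8 libraries, and in Suv39h DKO it was the lowest of its 8 values at −0.0285, below the 7th (−0.0281) and the 9th (−0.0218). Its GC content was 37.4%, much like that of the neighbours at 37.4% and 37.7%. The last bin was the highest of the gene at −0.0170, the lowest was the 13th at −0.0341, and the downstream flank averaged −0.0105. The gene body was below the downstream flank in 8 of 8 libraries.

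Dlg2 and Magi2 encode scaffolds that hold receptors at synapses, PSD-93 and S-SCAM. Dlg2 covers 21 bins at chr7:90476672-92449247 on the plus strand and ran the other way from Cntnap2. Its first bin was A in all 8 libraries at 0.00544 (6.99e-05 to 0.0108), and the other 20 bins were B in all 8 libraries. The second bin was already at −0.0154 and the third at −0.0226, and the lowest was the 14th at −0.0308. The first bin is not that of Dlg2 alone: the starts of Ccdc89, Crebzf, Tmem126a and Tmem126b lie in it as well, upstream of Dlg2. Flanks on both sides were higher than the body in 8 of 8 libraries, at 0.00660 upstream and −0.00403 downstream. The RefSeq starts of Dlg2 lie further inside, in the 7th, 17th and 19th bin, and all of these were B at −0.0276, −0.0285 and −0.0266.

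Magi2 covers 16 bins at chr5:19227036-20704792 on the plus strand. The start bin was at −0.0106 (−0.0147 to −0.00680), the lowest bin, the 5th, at −0.0150, and the 2 last bins were A in all 8 libraries at 0.00727 and 0.00690. The 14th bin, next to them, was near 0 and changed sign between libraries: it was above 0 at 0.00217 in Setdb1 WT and at 0.00271 in Setdb1 KO, and below 0 in the other 6, down to −0.00499 in Suv39h WT + UNC. The last bin, from position 20700001, holds only the 3′ end of the gene, and the downstream flank was A as well, at 0.0109. Magi2 thus crossed from B into A before its 3′ end, as Cntnap2 did, but over smaller scores. Without UNC0642 the body mean of Magi2 was −0.00882 in the Setdb1 line and −0.00821 in its knockout, −0.00546 in the Suv39h wild-type clone and −0.00773 in the DKO clone, and with UNC0642 it was −0.00984, −0.00779, −0.00936 and −0.00881 in this order. The Suv39h WT library was the highest of them.

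**Figure D2:**
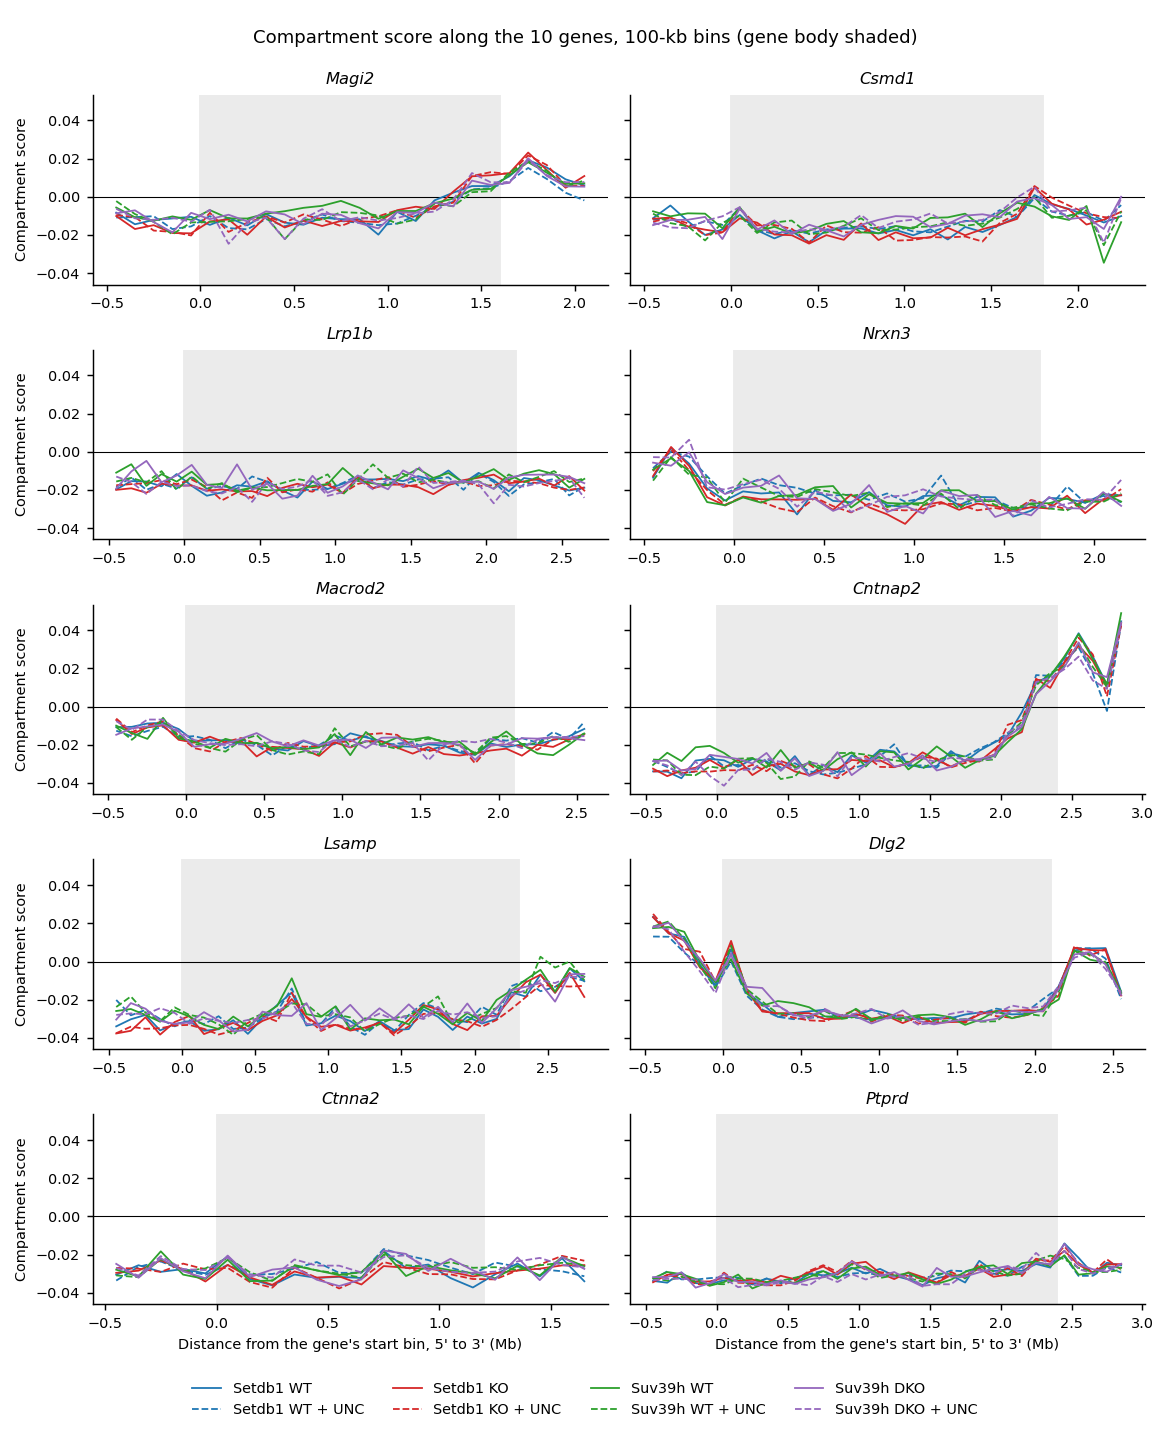
Compartment score (vertical axis, deposited eigenvector value) in 100-kb bins along the 10 genes from the start bin in the direction of transcription (Mb), with the gene body shaded and 5 bins of flank on each side. Solid lines are untreated and dashed lines UNC0642-treated libraries; scores pass from B into A at the 3′ end of Cntnap2 and Magi2 and from A into B after the first bin of Dlg2, while the bodies of Lrp1b, Macrod2, Ctnna2, Ptprd, Nrxn3 and Lsamp stay below 0 throughout.

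Lrp1b, Ptprd and Csmd1 encode large transmembrane proteins. Lrp1b, a member of the low-density lipoprotein receptor family, covers 22 bins at chr2:40595246-42653624 on the minus strand. It was the flattest of the 3: the start bin was at −0.0140 (−0.0179 to −0.00691), and the bins ran only from −0.0202 in the 7th to −0.0137 in the 16th, and their SD along the gene was 0.00209. Its flanks, at −0.0158 on each side, differed little from the body mean of −0.0169. Lrp1b also had the lowest GC content of the 10 genes, at 36.4%.

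Ptprd, a receptor tyrosine phosphatase of the LAR family that organises synapses, covers 24 bins at chr4:75941238-78211961 on the minus strand and had the lowest score of the 10 genes. Its mean was between −0.0318 and −0.0299, which is between the 8.23 and 10.7 percentile of the bins of chromosome 4. The start bin was at −0.0324 and the lowest, the 3rd, at −0.0350, and the highest, the 23rd, was still at −0.0230. Scores were higher in the last of 3 equal parts of the body than in the first in 8 of 8 libraries, by 0.00513 on average.

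Csmd1, a CUB and sushi domain protein that regulates complement, covers 18 bins at chr8:15892537-17535586 on the minus strand. Its start bin was at −0.00748 (−0.0113 to −0.00543) and its lowest, the 5th, at −0.0201. The last bin, which holds only the 3′ end of the gene, was the highest at 0.00126 and changed sign between libraries. It was above 0 in untreated Setdb1 WT (0.000924), in Setdb1 KO without (0.00487) and with UNC0642 (0.00564) and in Suv39h DKO + UNC (0.00524), and below 0 in the other 4, down to −0.00514 in Suv39h WT. The other 17 bins were B in all 8 libraries.

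Ctnna2 and Macrod2 act inside the cell. Ctnna2 encodes alpha-N-catenin, which links cadherins to actin in neurons, and covers 12 bins at chr6:76881637-77979699 on the minus strand. Macrod2 encodes an enzyme that removes ADP-ribose from proteins, and covers 21 bins at chr2:140395309-142392966 on the plus strand. All bins of both genes were B in all 8 libraries. In Ctnna2 the highest bin was the 8th, at −0.0203 (−0.0260 to −0.0171), where the small synaptic gene Lrrtm1 lies within Ctnna2. The lowest was the 3rd, at −0.0333. In Macrod2 the 4th bin, where Flrt3 lies within the gene, was at −0.0180, and the bins ran from −0.0250 in the 19th to −0.0166 in the 10th. A nested gene was therefore found in the highest bin of Ctnna2 but not of Macrod2, and neither bin reached 0.

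The first RefSeq promoters of Ctnna2, Macrod2 and Magi2 were rich in CpG although their bins were B in all 8 libraries. The 300 bases around the start held 38, 33 and 29 CpG, a number reached by 4.95%, 8.56% and 12.9% of all promoters, and the scores of their bins were −0.0231, −0.0188 and −0.0106. Promoters of 7 of the 10 genes matched the RefSeq table, with 15 starts, and 14 of these lay in bins that were B in all 8 libraries. Csmd1, Lrp1b and Ptprd did not match. The bases before the first exon of Ctnna2, Macrod2 and Magi2 are shown, as CpG-rich starts within B, with CpG in capitals. They are chr6:77979700-77979899 on the minus strand, chr2:140395180-140395308 on the plus strand and chr5:19226836-19227035 on the plus strand.
Ctnna2: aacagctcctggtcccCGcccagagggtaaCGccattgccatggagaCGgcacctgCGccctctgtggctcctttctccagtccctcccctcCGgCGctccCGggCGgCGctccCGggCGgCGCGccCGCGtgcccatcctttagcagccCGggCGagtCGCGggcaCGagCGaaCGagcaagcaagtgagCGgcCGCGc
Macrod2: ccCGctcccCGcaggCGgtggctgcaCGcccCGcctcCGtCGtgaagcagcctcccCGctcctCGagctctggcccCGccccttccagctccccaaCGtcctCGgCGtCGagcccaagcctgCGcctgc
Magi2: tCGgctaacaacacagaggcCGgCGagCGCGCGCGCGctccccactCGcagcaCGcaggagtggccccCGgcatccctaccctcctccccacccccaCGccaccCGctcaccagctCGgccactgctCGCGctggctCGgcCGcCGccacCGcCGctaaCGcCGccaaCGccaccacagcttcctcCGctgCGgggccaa

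The 198 bins shared features that their choice did not use. Their median GC content was 38.1%, against 41.4% for all bins and 38.8% for all bins that were B in all 8 libraries, and 190 of the 198 were under the median of all bins. The sites of DpnII, GATC, numbered 235 per bin at the median, against 246 for all bins. Among the 198 bins the score correlated with GC content with r = 0.586, and among all 23972 bins with r = 0.780. These points share chromosomes and neighbours, and the values are given as a description. Choosing long genes limits the number of their own starts per bin. With the starts of other genes counted as well, the bins held 0.0859, where all bins held 0.864.

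**Figure D3:**
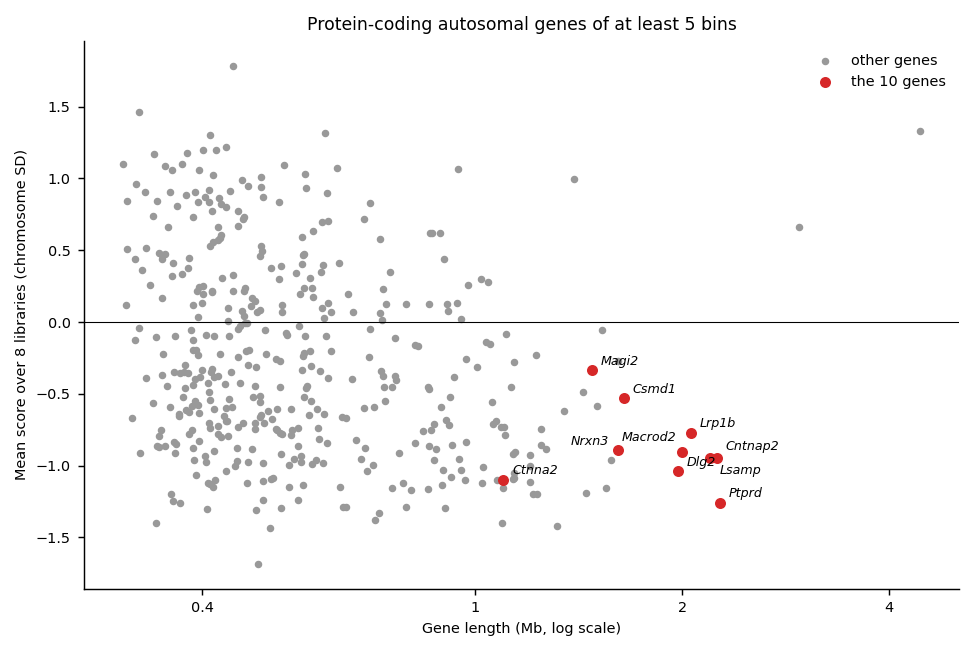
Mean compartment score over 8 libraries (chromosome SD units, vertical axis) against gene length (Mb, log scale) for the 433 protein-coding autosomal genes of at least 5 bins, with the 10 genes in red. The 10 genes lie between −1.26 and −0.335, and 5 of the 45 other genes of at least 1 Mb lie above 0 in all 8 libraries.

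Among the 55 protein-coding genes of at least 1 Mb, Ptprd ranked 3rd from the lowest and Ctnna2 11th, while Csmd1 ranked 39th and Magi2 42nd. The lowest of the other 45 were Lrrc4c (−1.42), Sgcd (−1.40) and Tenm2 (−1.20), and the highest were Gm20388 (1.33), Gm37240 (0.994) and Fgfr2 (0.663). These highest genes cover 45, 15 and 31 bins. The spans of all 45 were taken from the annotation as given, and models that run over several genes were not removed. The median was −0.743 over the other 45 and −0.924 over the 10 genes. Over the 433 genes of at least 5 bins it was −0.375 and over all genes 1.03, so that the 10 genes lay in the range of other genes as long as they are.

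The 24 family relatives of these genes that were compared did not all share their compartment, and they divided by length. Of the 10 relatives that cover at least 5 bins, 8 were below 0 in all 8 libraries, with a median of −0.941, and of the 14 that cover fewer bins 13 were above 0 in all 8 libraries, with a median of 1.41. Within the contactin-associated family Cntnap5b was at −1.38 and Cntnap1 at 1.41. Among CUB and sushi genes Csmd3 was at −1.19 and Csmd2, which covers 7 bins, at 0.633. Opcml, the lowest of the IgLON relatives of Lsamp, was at −0.918, and Iglon5 was at 1.34.

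Some families had no relative in B. The DLG genes lay between 1.22 for Dlg5 and 1.70 for Dlg4, and the LAR phosphatases at 1.71 for Ptprf and 1.87 for Ptprs. The LRP genes were at 0.679 for Lrp2 and 1.63 for Lrp1, and Macrod1 was at 1.52. Magi1 covers 7 bins and was at 0.900, above Magi3 at 0.868. Of the alpha-catenins Ctnna3, at −0.963, was in B and Ctnna1, at 1.41, was in A. The test for each of the 3 perturbations was passed by 0 of the 24 relatives and by 0% of all genes.

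**Figure D4:**
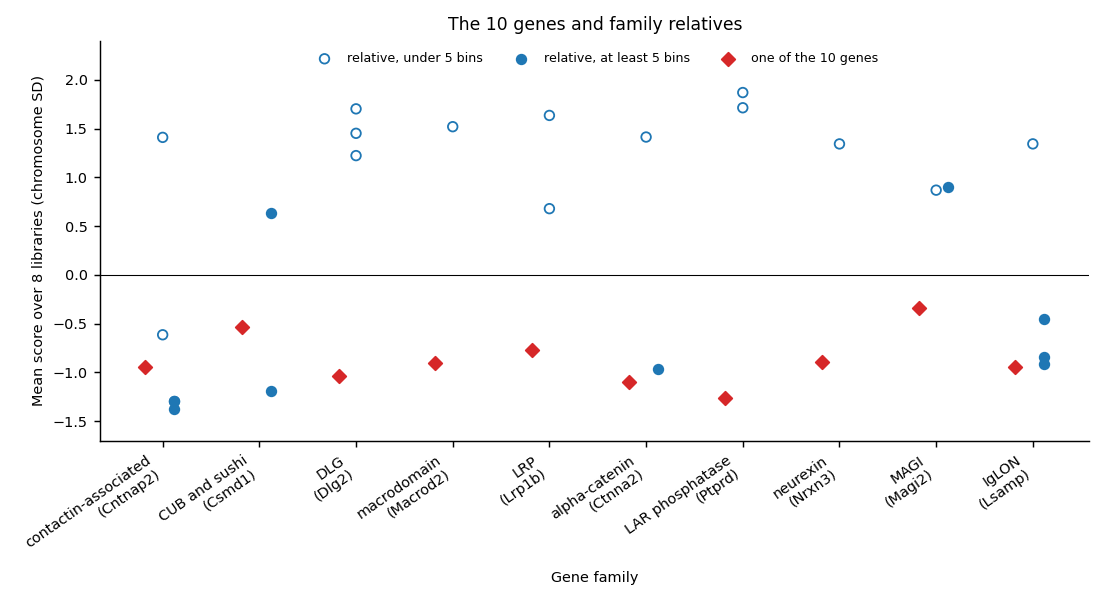
Mean compartment score over 8 libraries (chromosome SD units, vertical axis) of the 10 genes (red diamonds) and of their 24 relatives, by family. Filled circles are the 10 relatives of at least 5 bins, 8 of them below 0, and open circles the 14 of fewer bins, 13 of them above 0.

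The perturbations were compared next. Since these files give 1 score track per group, the effects of UNC0642, SETDB1 loss and SUV39H1/2 loss were estimated together with limma on the mean scores of all 20721 genes, with the 4 backgrounds as a block and Benjamini-Hochberg adjustment. UNC0642 then rests on 4 pairs of libraries and each gene loss on 2 against 2. The p-values measure the spread that is left between these tracks, which may be technical. Both Setdb1 KO libraries received 4-OHT and neither Setdb1 WT library did, so SETDB1 loss cannot be told apart from 4-OHT. The Setdb1 KO pair also differed in the stated days of 4-OHT, 5 and 2, and not in UNC0642 alone. The Setdb1 WT + UNC library stood apart from the other 3 of its line. It differed from Setdb1 WT by at least 0.01 upwards in 3.51% and downwards in 4.62% of all bins, while UNC0642 in the Setdb1 KO gave 0.755% and 0.934%. The estimates that rest most on it are given without it as well.

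UNC0642 gave no call among the 10 genes. At an adjusted p of 0.05 the test was passed by 0 of 10 and by 0% of all genes, and 0 of 10 had an unadjusted p under 0.05, against 4.27% of all genes. The estimates ran from −0.00139 for Magi2 (SE 0.000904) to 0.00121 for Ctnna2 (SE 0.000904). Of them 4 were higher and 6 lower, with a median of −0.000153 beside −5.48e-05 over all genes. This split moved with the processing: Cntnap2, Macrod2 and Ptprd each changed sign in 3 of 14 other settings, and Lsamp in 4. The 95% intervals of all 10 lay between −0.00323 and 0.00305, so that no interval reached a mean change of more than this. In the 4 pairs Magi2 differed by −0.00101, 0.000421, −0.00390 and −0.00108 (Setdb1 WT, Setdb1 KO, Suv39h WT and Suv39h DKO). Ctnna2 differed by 0.00354, −0.000845, 0.00122 and 0.000929. Neither had the same sign in every pair. The Magi2 estimate was −0.000558 without the Suv39h WT pair, and the Ctnna2 estimate was 0.00190 without the Setdb1 KO pair. Without Setdb1 WT + UNC the estimate was 0.000436 for Ctnna2, 0.000428 for Nrxn3 (0.00105 with it) and 0.000164 for Csmd1 (0.000676 with it). The 10 genes then ran from −0.00152 for Magi2 to 0.000436 for Ctnna2. In this setting 4 were higher and 6 lower, with a median of −7.65e-05. The positive estimates were thus smaller without this library.

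After SETDB1 loss 0 of 10 genes passed the test, and 0% of all genes. An unadjusted p under 0.05 was found for 2 of 10 genes and for 9.16% of all genes. Nrxn3 had the largest estimate at −0.00423 (SE 0.00126; limma, unadjusted p = 0.00200, adjusted p = 0.268). In the Setdb1 wild type its mean was −0.0255 untreated and −0.0226 with UNC0642, and in the knockout it was −0.0280 untreated and −0.0285 with UNC0642. Both knockout libraries were below both wild-type libraries. The 4 Suv39h libraries lay within the range of the Setdb1 wild type, at −0.0244 (wild type), −0.0241 (wild type with UNC0642), −0.0254 (DKO) and −0.0239 (DKO with UNC0642). Without Setdb1 WT + UNC, the highest of the 8, the estimate was −0.00298 and still the lowest of the 10 genes. It then rests on untreated Setdb1 WT alone as wild type.

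Ctnna2 gave the other unadjusted p under 0.05 in this comparison, with an estimate of −0.00266 (SE 0.00128; limma, unadjusted p = 0.0453, adjusted p = 0.525). In the wild type its mean was −0.0297 untreated and −0.0261 with UNC0642, and in the knockout −0.0301 and −0.0310. Setdb1 WT was thus close to the knockout libraries, and Setdb1 WT + UNC was the library that differed. Without that library the estimate was −0.00111 (limma, adjusted p = 0.9997). In the Suv39h wild-type clone the mean of Ctnna2 was −0.0281 untreated and −0.0269 with UNC0642, and in the DKO clone −0.0271 and −0.0262. Over the 10 genes 8 estimates were below 0, with a median of −0.00125 where that over all genes was 6.18e-05 and that over the 433 genes of at least 5 bins −0.00119. Without Setdb1 WT + UNC the estimates were again below 0 for 8 of 10 genes, with a median of −0.000881 beside −0.000241 over all genes and −0.000565 over the genes of at least 5 bins. Here 0 of 10 genes and 0% of all genes passed, and 1 of 10 had an unadjusted p under 0.05, against 3.8% of all genes.

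After SUV39H1/2 loss 0 of 10 genes passed the test, and 0% of all genes, and an unadjusted p under 0.05 was found for 0 of 10, against 9.82% of all genes. The estimates ran from −0.00178 for Lrp1b (SE 0.00124) to 0.00147 for Csmd1 (SE 0.00124), 3 of them above and 7 below 0. In 9 other settings Macrod2 rose above 0 in 2, and Nrxn3, Ptprd and Lsamp in 1 each. Across these settings the Lrp1b estimate ran from −0.00196 to −0.000872. Lrp1b was at −0.0153 in Suv39h WT and −0.0163 in Suv39h DKO, and at −0.0157 and −0.0183 with UNC0642. Csmd1 was at −0.0131 in Suv39h WT and −0.0121 in Suv39h DKO, and at −0.0136 and −0.0117 with UNC0642. Both differences kept their sign in the 2 pairs and lay within the intervals of the fit, which reached from −0.00430 to 0.00399 over the 10 genes.

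**Figure D5:**
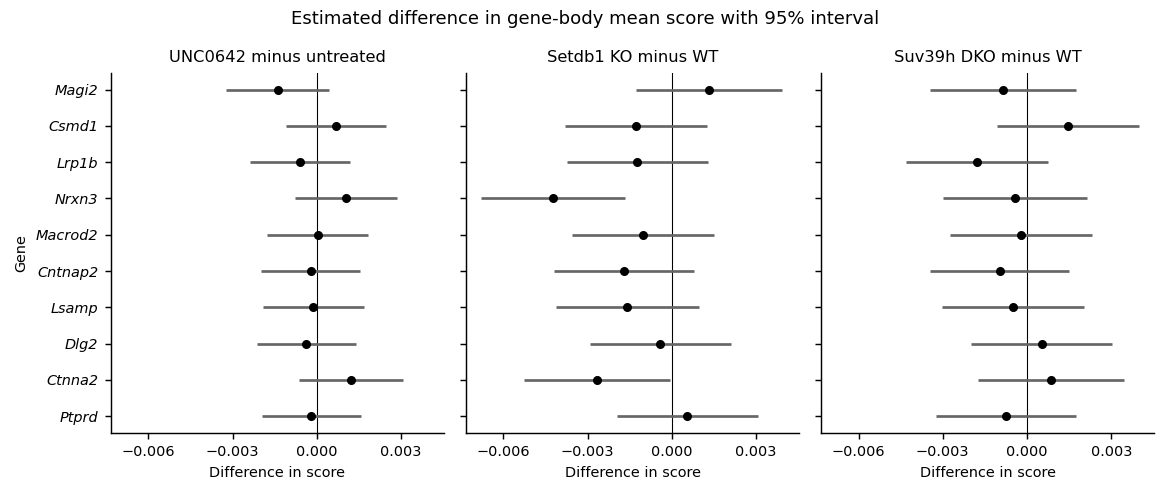
Estimated differences in gene-body mean score (horizontal axis, deposited score) with 95% intervals for the 10 genes, from the limma fit over all genes, for UNC0642, Setdb1 KO against WT and Suv39h DKO against WT. The intervals of Nrxn3 and Ctnna2 in the Setdb1 comparison are the only ones of the 30 that leave out 0, and neither passes the adjusted test.

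Whether UNC0642 acted differently in the Setdb1 line and the Suv39h clones was tested by an added term. It passed for 0 of 10 genes and 0% of all genes, and an unadjusted p under 0.05 was found for 0 of 10 against 3.97% of all genes. The estimates ran from −0.00219 to 0.000655, and their intervals were wider than those of the main effects, from −0.00611 to 0.00457. Without Setdb1 WT + UNC the estimates of this term ran from −0.00291 to 0.00192, and it passed for 0 of 10 genes and 0.00483% of all genes, which is 1 gene. The difference between the Suv39h WT and Setdb1 WT backgrounds, over libraries with and without UNC0642, passed in 0 of 10 genes and in 0.864% of all genes, and 0 of 10 had an unadjusted p under 0.05, against 16.7% of all genes. Without Setdb1 WT + UNC it passed in 0 of 10 genes and in 1.86% of all genes, and 2 of 10 had an unadjusted p under 0.05, against 18.8% of all genes. This contrast between cell lines was added after the data had been seen.

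Single bins were tested as well. In a limma fit over all 23972 bins, 0 of the 198 bins passed for UNC0642, SETDB1 loss or SUV39H1/2 loss, and 0% of all bins did. Unadjusted p under 0.05 was found for 4 of the 198 bins after UNC0642 (2.02%, against 4.95% of all bins), for 12 after SETDB1 loss (6.06%, against 9.1%) and for 11 after SUV39H1/2 loss (5.56%, against 9.6%). The 12 bins of the SETDB1 comparison lay in Nrxn3 and Cntnap2 (4 each), Lsamp (2), Ctnna2 and Magi2 (1 each), and 10 of them were lower in the knockout. Without Setdb1 WT + UNC, a fit added after the data had been seen, 3 bins had an unadjusted p under 0.05 for SETDB1 loss (1.52%, against 3.79% of all bins), all in Cntnap2, and 2 of them were among the 12, while the 4 bins in Nrxn3 were not. For UNC0642 the same 4 bins were found in that fit, and 0 of the 198 bins and 0% of all bins passed for any of the 3 perturbations. The 4 bins of the UNC0642 comparison, in Magi2 (2), Cntnap2 and Lrp1b (1 each), were all lower with UNC0642. The term for a different effect of UNC0642 in the 2 lines passed in 0 of the 198 bins and in 0% of all bins, with an unadjusted p under 0.05 in 3 (1.52%, against 3.67%). Suv39h WT against Setdb1 WT passed in 0 of the 198 bins and in 0.363% of all bins, with an unadjusted p under 0.05 in 9 (4.55%, against 13.5%).

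For each of the 3 perturbations, 0 of the 198 bins moved the same way by 0.01 or more in all of its pairs. Among all bins it was found for UNC0642 in 0.00417% upwards and 0% downwards, for SETDB1 loss in 0.567% upwards and 0.129% downwards, and for SUV39H1/2 loss in 0.35% upwards and 0.509% downwards. In single pairs of libraries, for which these files give no replicate check, such changes were scattered. UNC0642 in Setdb1 WT gave 2 bins upwards, both in Nrxn3, and 0 downwards (all bins, 3.51% and 4.62%), and UNC0642 in Setdb1 KO gave 0 in either direction (0.755% and 0.934%). In Suv39h WT 0 bins were higher and 5 lower (all bins, 2.26% and 2.53%), and in Suv39h DKO 2 higher and 9 lower (3.04% and 3.69%), spread over Cntnap2, Lrp1b, Lsamp, Magi2, Nrxn3 and Ctnna2.

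Loss of SETDB1 gave 0 bins upwards and 1 downwards without UNC0642 (all bins, 1.4% and 0.88%). With UNC0642 it gave 0 upwards and 9 downwards (7.16% and 5.79%), of which 4 were in Nrxn3, and this pair includes Setdb1 WT + UNC. Loss of SUV39H1/2 gave 5 upwards and 6 downwards without UNC0642 (3.64% and 3.73%) and 1 upwards and 6 downwards with it (2.98% and 3.86%). Loss of SETDB1 with UNC0642, set against untreated Setdb1 WT, gave 0 bins in either direction (1.46% and 1.18%). Loss of SUV39H1/2 with UNC0642, set against untreated Suv39h WT, gave 3 upwards and 8 downwards (4.53% and 5.27%). These contrasts share libraries, and Dlg2 and Ptprd had 0 such bins in all 11 contrasts that were made.

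Changes of compartment were few at the deposited centring. Of the 198 bins between 196 and 198 kept their sign in each of the 11 contrasts, at least 99.0% where all bins kept it in 93.7% to 96.9%. This follows from the counts above: only 2 of the 198 bins differed in sign between libraries, against 13.0% of all bins. Bins equally far from 0 were not compared. At this centring the switches came from the 14th bin of Magi2 and the last bin of Csmd1. With the estimated chromosome mean added back, 20 bins in 5 genes switched in at least 1 contrast and 93.4% to 99.0% of the 198 kept their sign (all bins, 93.2% to 96.3%), so that the members then kept it less often than all bins in 2 of the 11 contrasts. With it subtracted, 3 bins switched and at least 98.5% kept their sign (94.4% to 97.2%). The counts that follow are for the deposited scores. With UNC0642 in Setdb1 WT 2 bins went from A to B (5.12% of all bins switched), and in Setdb1 KO 1 did (3.14%). With UNC0642 in Suv39h DKO 1 bin went from B to A (4.11%), and in Suv39h WT 0 bins switched (3.92%). Loss of SETDB1 or SUV39H1/2 without UNC0642 switched 0 bins (3.22% and 4.63%), and with UNC0642 each switched 1 from B to A (6.34% and 4.59%). Against the untreated wild type of its line, SETDB1 loss with UNC0642 switched 1 bin from A to B (3.58%) and SUV39H1/2 loss with UNC0642 1 from B to A (5.05%). Suv39h WT against Setdb1 WT, with no perturbation, had 2 bins in B that were in A in Setdb1 WT (5.53%).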

How the data were processed

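The authors mapped the Hi-C reads to mm10 and deposited, for each library, the first eigenvector of every autosome in 100-kb bins, made with Juicer from KR-normalised contacts. Each file was read as such a compartment score, a deposited number with no fixed unit. Its centring on 0 removed a chromosome mean, estimated here from the sum of squares as 0.00405 to 0.0112 on the chromosomes of the 10 genes. Bins scored in all 8 libraries were kept (23972 of 24005). Groups followed the sample titles. Means over the bins of each gene were fitted with limma 3.58.1 in R 4.3.3. The prior variance was set within 5 classes of bin number, since a trend on bin number could not be fitted. A change of 0.01 is a class edge that the study used for differences in score. The script was tested on simulated scores. The genes and lists, and the rule that named all 10 genes, their start, highest and lowest bins, the extremes of each family and the 3 highest and 3 lowest other long genes, were chosen with earlier results of these data known. Alternatives covered scale, centring, bins counted, GC content, prior variance and left-out libraries. Of the planned family relatives 1 is not reported here. Promoter sequences came from RefSeq (GRCm38.p6).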

Additional observations from a re-analysis of the deposited data

How the results depend on the processing

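None of the 10 genes passed the limma test for any of the 3 perturbations under another scale, centring or set of bins, another prior variance, without short genes, with GC content removed or without Setdb1 WT + UNC. A left-out pair of libraries and a fit without background terms were run for UNC0642 alone (no replicate block, 0 of 10 genes, against 0 with the block). With a pair left out 0 of 10 genes passed, and of all genes 1 passed without the Setdb1 KO pair and 0 without each other pair. Single bins were fitted again in chromosome SD units, under both centrings and, added after the data had been seen, without Setdb1 WT + UNC, and 0 of the 198 passed. The numbers of the labels pair no samples, and the 4 backgrounds served as the block. Shares of bins in A and of bins that kept their sign moved with the centring. With the implied chromosome mean added, the share of the 198 bins in A was 10.1% for untreated Suv39h WT, and for the DKO it was 6.57% untreated and 8.08% with UNC0642, and the share keeping their sign went to 94.4% (UNC0642 in Suv39h WT), 95.5% (UNC0642 in Suv39h DKO and SUV39H1/2 loss with UNC0642), 93.4% (SUV39H1/2 loss without UNC0642 and Suv39h WT against Setdb1 WT) and 94.9% (both Suv39h perturbations together). With it subtracted, the A share was 1.01% in both libraries of Setdb1 WT and of Suv39h WT, and 100% kept their sign for UNC0642 in the Setdb1 line of either genotype and the Suv39h DKO and for Suv39h WT against Setdb1 WT. With bins wholly inside the genes only, the A share was 1.69% for untreated Setdb1 WT and KO and 1.12% for each knockout with UNC0642, and 100% kept their sign wherever the last bin of Csmd1 had switched in the Suv39h clones or after SETDB1 loss with UNC0642, as they did in 7 contrasts once bins within 0.005 of 0 were left out. At a change of 0.02, 0 bins were left in the 9 contrasts that had any, and after quantile normalization 1 bin was lower for UNC0642 in Setdb1 KO and 3 differed between Suv39h WT and Setdb1 WT. All of these values are limited by files that hold 1 score track per group and no depth.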

Other observations

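Over the 8 libraries the mean of the 10 genes, in chromosome SD units, was lowest in Setdb1 KO + UNC (−0.914) and highest for untreated Suv39h WT (−0.835). Of 423 other genes of at least 5 bins that share no bin with them, those whose 8 values followed this mean most closely were Grm7 (r = 0.954), Nrg1 (r = 0.946) and Dab1 (r = 0.945), over 8 libraries and picked as the highest of 423.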
